A study of Homo sapiens with 6 samples.

Results

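The entry of a cell into the division cycle is set by a small group of proteins that act before S phase, and 10 of their genes are described here. They were chosen by name as the inhibitors CDKN1A and CDKN1B of the Cip/Kip family, the inhibitors CDKN2A, CDKN2B, CDKN2C and CDKN2D of the INK4 family, the D-type cyclins CCND1 and CCND3, and the kinases CDK4 and CDK6. All 10 were found among the 67140 Ensembl gene identifiers of the table, and 8 of them passed the filter on low counts that left 20786 genes to test. CDKN2A and CDKN2B stood at 0 in every library and could not be tested.

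RNA-seq was performed on CAPAN-2, an established cell line from a human pancreatic ductal adenocarcinoma. The 3 libraries labelled SIRT4 came from cells described as overexpressing SIRT4, a mitochondrial sirtuin. The 3 labelled ctrl came from cells of the same line without that overexpression. No source used here gives the vector, whether the cells were 1 clone, the time after SIRT4 was introduced or the culture conditions. Nor do the labels state that replicates were grown separately, so the p-values rest on the variation among these libraries, and that may be technical.

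In G1, D-type cyclins bind CDK4 or CDK6, and the complexes phosphorylate the retinoblastoma protein RB1, which frees E2F transcription factors to switch on genes of DNA replication. INK4 proteins bind CDK4 and CDK6 alone and keep the D-type cyclins off them. Cip/Kip proteins act more widely, above all on complexes of CDK2 with cyclin E or A, and they also help D-type cyclins to assemble with their kinases. In pancreatic ductal carcinoma CDKN2A is among the genes most often inactivated.

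Totals ran from 51999089 to 65156041 estimated counts in SIRT4 libraries and from 50945991 to 57626801 in ctrl libraries. SIRT4 itself was at 3.31, 2.80 and 3.60 CPM (counts per 1000000 estimated counts of the library, scaled with TMM factors) in SIRT4 libraries, against 2.47, 1.96 and 1.83 CPM in ctrl libraries. The groups did not overlap, and the log2 fold change of 0.63 (SE 0.21) did not pass the threshold of 0.05 (adjusted p = 0.0752; quasi-likelihood test of edgeR, p-values adjusted after Benjamini and Hochberg over all tested genes). These counts thus do not by themselves establish the overexpression. Of all tested genes 9.38% were higher and 7.67% were lower in SIRT4 libraries. Of 9 epithelial markers 4 were higher (KRT8, by 1.26 on the log2 scale, KRT18, KRT19 and ELF3), and none was lower. EPCAM (-0.19), CDH1 (0.13), KRT7 (0.33), MUC1 (0.35) and CLDN4 (-2.44) did not pass. The summed level of the 9 ran from 4333 to 4510 CPM in SIRT4 libraries and from 2081 to 2741 CPM in ctrl libraries. CLDN4, another of them, ranged from 1.84 to 535 CPM among the ctrl libraries alone. None of 10 fibroblast or 6 endothelial markers passed, and of 8 leukocyte markers CD68 was lower (log2 fold change -0.90). The leukocyte sum ran from 38.3 to 49.0 CPM in SIRT4 libraries and from 62.6 to 92.0 CPM in ctrl libraries, while the fibroblast sums overlapped at 190 to 196 CPM in SIRT4 libraries and 185 to 203 CPM in ctrl libraries. COL1A1 made up most of the fibroblast sum, at 172.3, 166.0 and 170.6 CPM in SIRT4 libraries and 181.3, 167.1 and 177.0 CPM in ctrl libraries. THY1 and COL3A1 followed, with means of 11.07 and 6.18 CPM over all 6 libraries. The fibroblast markers COL1A2, DCN and FAP and the leukocyte markers CD3E and HLA-DRA were at 0 in all 6 libraries. The part of these differences in the results below was not tested.

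The INK4 genes and CDKN1B carry the results that follow, so the DNA around their transcription starts is shown first. The windows are those of RefSeq on GRCh38.p14, from 250 bases before to 50 bases after a start, printed along the gene's own strand, with GGGCGG and its reverse complement CCGCCC, the GC box bound by SP1, in capitals. CDKN2C and CDKN2A have several annotated starts. For CDKN2C the most GC-rich window is printed, and for CDKN2A the windows of the ARF start and of the INK4A start, in that order.
CDKN2C, chr1:50968456-50968755, plus strand: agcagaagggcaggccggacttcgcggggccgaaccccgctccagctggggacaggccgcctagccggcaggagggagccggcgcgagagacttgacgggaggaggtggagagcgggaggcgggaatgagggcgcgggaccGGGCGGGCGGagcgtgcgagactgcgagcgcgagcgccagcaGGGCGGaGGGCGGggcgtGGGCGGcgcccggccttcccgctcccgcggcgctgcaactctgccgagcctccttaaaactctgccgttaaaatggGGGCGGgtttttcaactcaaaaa
CDKN1B, chr12:12717118-12717417, plus strand: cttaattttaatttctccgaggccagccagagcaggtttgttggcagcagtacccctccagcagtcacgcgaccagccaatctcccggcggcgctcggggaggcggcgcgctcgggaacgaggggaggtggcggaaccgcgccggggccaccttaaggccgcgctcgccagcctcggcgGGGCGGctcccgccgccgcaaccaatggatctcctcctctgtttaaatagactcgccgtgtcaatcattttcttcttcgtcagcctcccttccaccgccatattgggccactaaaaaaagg
CDKN2A (ARF), chr9:21995275-21995574, minus strand: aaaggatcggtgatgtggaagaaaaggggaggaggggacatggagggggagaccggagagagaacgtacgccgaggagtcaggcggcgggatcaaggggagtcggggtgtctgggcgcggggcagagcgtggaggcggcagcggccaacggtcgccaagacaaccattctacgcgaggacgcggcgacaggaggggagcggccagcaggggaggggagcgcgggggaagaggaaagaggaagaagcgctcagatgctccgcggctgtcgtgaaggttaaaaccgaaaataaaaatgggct
CDKN2A (INK4A), chr9:21974808-21975107, minus strand: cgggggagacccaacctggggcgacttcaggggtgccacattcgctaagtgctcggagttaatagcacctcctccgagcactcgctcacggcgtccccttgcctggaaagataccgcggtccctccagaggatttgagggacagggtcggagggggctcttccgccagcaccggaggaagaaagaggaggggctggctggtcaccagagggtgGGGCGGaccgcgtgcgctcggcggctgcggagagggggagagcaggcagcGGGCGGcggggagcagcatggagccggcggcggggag
CDKN2B, chr9:22009256-22009555, minus strand: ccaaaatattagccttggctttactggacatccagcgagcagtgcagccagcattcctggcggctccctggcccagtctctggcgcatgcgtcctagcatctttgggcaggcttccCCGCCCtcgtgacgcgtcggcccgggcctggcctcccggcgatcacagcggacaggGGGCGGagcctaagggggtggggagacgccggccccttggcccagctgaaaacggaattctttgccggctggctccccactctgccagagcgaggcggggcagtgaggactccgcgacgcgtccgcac
CDKN2D, chr19:10568930-10569229, minus strand: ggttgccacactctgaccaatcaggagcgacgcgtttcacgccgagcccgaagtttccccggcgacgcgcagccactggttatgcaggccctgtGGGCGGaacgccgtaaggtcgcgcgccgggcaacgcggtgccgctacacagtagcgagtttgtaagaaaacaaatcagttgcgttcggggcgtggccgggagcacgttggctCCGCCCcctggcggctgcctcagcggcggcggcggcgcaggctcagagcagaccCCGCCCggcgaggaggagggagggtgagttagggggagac

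The printed CDKN2C window held 6 GC boxes, counting matches that overlap each other, with a GC content of 71.3%, and was picked for that content. The other CDKN2C windows, at 46.3% and 49.3% GC, held 0 and 1. The CDKN1B window held 1, at a GC content of 62.3%. The ARF window of CDKN2A held none, its INK4A window held 2, the CDKN2B window also held 2, and the CDKN2D window held 3. Across the 9 genes with a window in the table (CCND1 had none), 11 of 15 windows held a GC box, against 45.0% of all 35116 windows of that length. No window of the 9 genes held TTTGGCGC, TTTCCCGC, TTTCGCGC or TTTGCCGC on either strand, the forms of the E2F motif that were searched, which occur in 3.31% of all windows. These are matches of letters in short windows and not sites of binding, and the table does not show which start a gene's reads came from.

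Of the 8 regulators tested, 1 was higher and 1 was lower in SIRT4 libraries, and 6 did not pass. CDKN2C rose 1.81-fold and CDKN1B fell to 0.846 of the ctrl level, while CDK4 and CDK6, the kinases they act on or with, had log2 fold changes near 0. By the same test 9.38% of all tested genes were higher and 7.67% were lower, 17.1% in either direction. The groups did not overlap for 4 of the 8 regulators (CDKN1A, CDKN1B, CDKN2C and CCND1), and they did not overlap for 37.6% of all tested genes. The median log2 fold change was -0.05 over the 8 and -0.02 over all tested genes.

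CDKN2C encodes p18, an INK4 inhibitor, and lies on GRCh38 chromosome 1, 50960745 to 50974633, plus strand. It was at 47.7, 46.9 and 44.1 CPM in SIRT4 libraries, against 26.5, 24.4 and 25.7 CPM in ctrl libraries. The lowest SIRT4 library stood well above the highest ctrl library, and the spread within each group was small. The means were 46.2 ± 1.9 CPM in SIRT4 libraries and 25.6 ± 1.1 CPM in ctrl libraries (SD, n = 3 each), a log2 fold change of 0.86 (SE 0.07) past the threshold (edgeR, Benjamini-Hochberg adjusted p = 0.000217). In bulk RNA, a different number of cells in a phase of the cycle and a different amount of RNA per cell cannot be told apart, here or for any gene below.

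**Figure D1:**
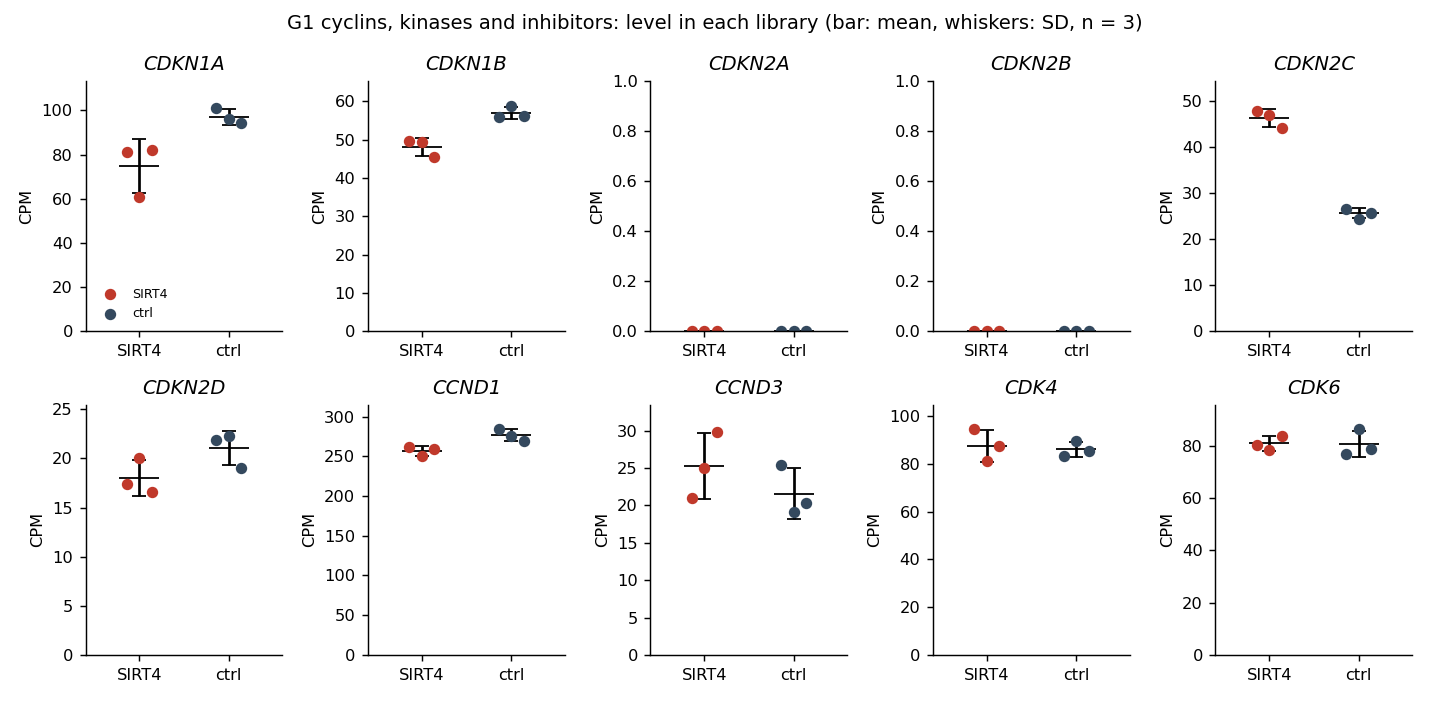
Level of each of the 10 genes in CPM (vertical axis from 0) in the 3 SIRT4 and 3 ctrl libraries, with points for libraries, a bar for the mean and whiskers for the SD. CDKN2C stands at 44.1 to 47.7 CPM in SIRT4 libraries and at 24.4 to 26.5 CPM in ctrl libraries, and CDKN2A and CDKN2B are at 0 throughout.

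CDKN2D encodes p19, the other INK4 inhibitor detected here, and lies on GRCh38 chromosome 19, 10566462 to 10569059, minus strand. It was at 17.4, 20.1 and 16.6 CPM in SIRT4 libraries, against 21.9, 22.3 and 19.1 CPM in ctrl libraries. SIRT4 replicate 2 lay above ctrl replicate 3, so the groups overlapped. Its log2 fold change of -0.23 (95% interval -0.48 to 0.02, not adjusted for the number of genes) did not pass (edgeR, Benjamini-Hochberg adjusted p = 0.208).

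The order of these 2 inhibitors differed between the groups when levels were put on a per-length scale, as CPM per kilobase of annotated exon. CDKN2C stood at 13.9 ± 0.57 and CDKN2D at 12.0 ± 1.2 CPM per kilobase in SIRT4 libraries, and the library values of the genes overlapped. In ctrl libraries CDKN2C stood at 7.70 ± 0.33 and CDKN2D at 14.02 ± 1.2 CPM per kilobase, without overlap (SD, n = 3 each). CDKN2C made up 55.4%, 51.4% and 54.7% of the summed INK4 level in SIRT4 libraries, against 35.5%, 33.1% and 37.9% in ctrl libraries. The summed INK4 level ran from 24.3 to 27.5 CPM per kilobase in SIRT4 libraries and from 20.4 to 22.5 in ctrl libraries. The sum thus differed by less between the groups than CDKN2C did. Exon lengths are those of all annotated transcripts of a gene together, so comparisons between genes are approximate.

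**Figure D2:**
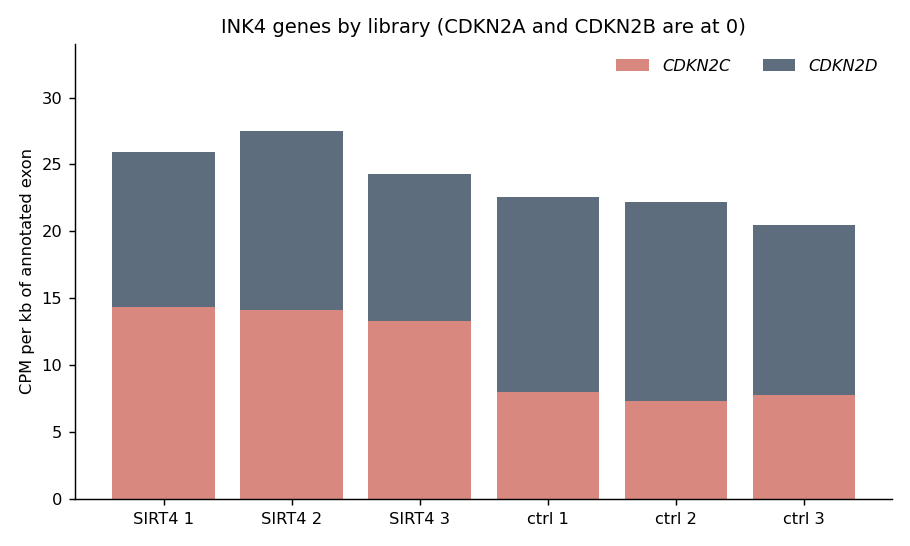
Level of CDKN2C and CDKN2D, stacked, as CPM per kilobase of annotated exon (vertical axis from 0) in each library, with SIRT4 libraries on the left. CDKN2C makes up 51.4% to 55.4% of the bar in SIRT4 libraries and 33.1% to 37.9% in ctrl libraries.

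CDKN2A, which encodes p16 and, from another first exon, the p53 activator ARF, and CDKN2B, which encodes the TGF-beta-inducible inhibitor p15, are neighbours on GRCh38 chromosome 9, minus strand, at 21967753 to 21995301 and 22002903 to 22009363. Both had 0 estimated counts in all 6 libraries. If 1 deposited unit is 1 fragment, a count of 0 allows up to 3 counts, or 0.0461 to 0.0582 CPM in a SIRT4 library and 0.0514 to 0.0582 CPM in a ctrl library, for counting error only. Low values rise at multiples of 4 in the table, and were 4 units 1 fragment, that limit would be 4 times as high. The antisense gene CDKN2B-AS1, which overlaps both, was at 0 in all 6 libraries as well. Among the protein-coding genes of GENCODE release 29 in the table, 13.8% were at 0 in every library, and none of 73 ribosomal protein genes was at 0 in any.

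Genes on either side of this pair were detected. MTAP, the methylthioadenosine phosphorylase gene on the side of lower coordinates, was at 11.2, 11.7 and 9.17 CPM in SIRT4 libraries, against 11.4, 7.92 and 11.03 CPM in ctrl libraries. DMRTA1, on the other side, was at 3.34, 2.85 and 3.79 CPM in SIRT4 libraries, against 4.33, 4.58 and 4.77 CPM in ctrl libraries. MTAP overlapped between the groups, and DMRTA1 did not overlap but did not pass (adjusted p = 0.111, edgeR with Benjamini-Hochberg). Farther along on the MTAP side, KLHL9, an adaptor of a ubiquitin ligase, averaged 29.9 CPM in SIRT4 libraries and 29.7 CPM in ctrl libraries, and FOCAD averaged 20.2 and 14.8 CPM in the same order. FOCAD was the 1 of these neighbours past the threshold (log2 fold change 0.45, SE 0.09, adjusted p = 0.0102, edgeR with Benjamini-Hochberg). IFNE and HACD4 stayed below 1 CPM in every library, and ELAVL2, beyond DMRTA1, had 4 estimated counts in ctrl replicate 3 and 0 elsewhere. Whether the DNA of CDKN2A and CDKN2B is present in these cells was not tested.

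**Figure D3:**
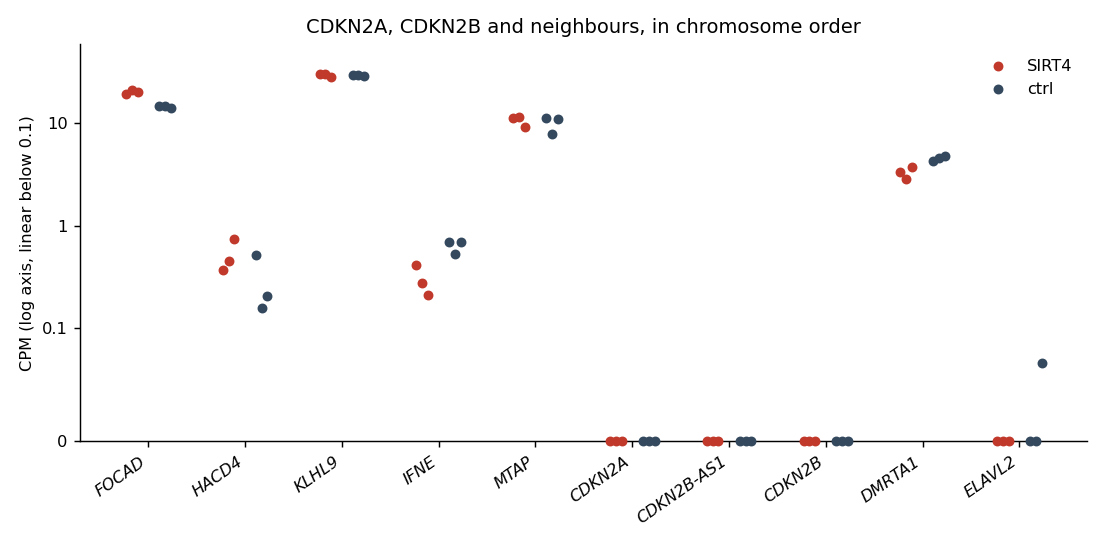
Level in CPM (log axis, linear below 0.1) of CDKN2A, CDKN2B and 8 genes around them in chromosome order, with 3 points for SIRT4 and 3 for ctrl libraries at each gene. CDKN2A, CDKN2B-AS1 and CDKN2B are at 0 in all 6 libraries, between MTAP at 7.92 to 11.7 CPM and DMRTA1 at 2.85 to 4.77 CPM.

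Of the Cip/Kip inhibitors, CDKN1B, which encodes p27, lies on GRCh38 chromosome 12, 12715058 to 12722371, plus strand. It was at 49.6, 49.3 and 45.4 CPM in SIRT4 libraries, against 55.8, 58.7 and 56.2 CPM in ctrl libraries. Every SIRT4 library was below every ctrl library. The means were 48.1 ± 2.3 CPM in SIRT4 libraries and 56.9 ± 1.6 CPM in ctrl libraries (SD, n = 3 each), and CDKN1B fell by 0.24 on the log2 scale (SE 0.06, adjusted p = 0.0345, edgeR with Benjamini-Hochberg). The call was lost whichever single library was left out: the adjusted p was then 0.0614, 0.0776 and 0.1203 without SIRT4 replicates 1, 2 and 3, and 0.0747, 0.0967 and 0.0906 without ctrl replicates 1, 2 and 3.

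CDKN1A encodes p21, an inhibitor that p53 induces, and lies on GRCh38 chromosome 6, 36676460 to 36687339, plus strand. It was at 81.4, 60.8 and 82.3 CPM in SIRT4 libraries, against 101, 95.9 and 94.1 CPM in ctrl libraries. The groups did not overlap, but SIRT4 replicate 2 stood apart from the other SIRT4 libraries. The log2 fold change of -0.37 (SE 0.12) did not pass (edgeR, Benjamini-Hochberg adjusted p = 0.0671). Without SIRT4 replicate 2 it was -0.24, with an adjusted p of 0.0510 by the same test. DESeq2 gave -0.36 with an adjusted p of 0.0245, and library sizes without TMM factors gave -0.41 with an adjusted p of 0.0497 by edgeR, both past the threshold. CDKN1C, the third gene of this family and not one of the 10, was at 11.8, 12.2 and 14.3 CPM in SIRT4 libraries, against 15.9, 15.1 and 16.0 CPM in ctrl libraries, and did not pass (adjusted p = 0.108, edgeR with Benjamini-Hochberg).

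Of the D-type cyclins, CCND1 and CCND3 did not pass. CCND1, the cyclin that growth factor signals induce, lies on GRCh38 chromosome 11, 69641087 to 69654474, plus strand, and was at 261, 250.1 and 259 CPM in SIRT4 libraries, against 284, 276 and 269 CPM in ctrl libraries. Every SIRT4 library was below every ctrl library, by a small margin. CCND1 differed by -0.11 on the log2 scale (SE 0.04) and did not pass (edgeR, Benjamini-Hochberg adjusted p = 0.122). Of its exon bases 10.3% are shared with LTO1 on the opposite strand, and since no strand setting is given their reads cannot be told apart. LTO1, linked to the assembly of iron-sulfur proteins, averaged 15.7 CPM in SIRT4 libraries and 25.2 CPM in ctrl libraries and was lower (log2 fold change -0.69, SE 0.16). The summed counts of CCND1 and LTO1 gave -0.15 (edgeR, Benjamini-Hochberg adjusted p = 0.0333), an alternative chosen after the data were seen. Only 497 of the 7872 exon bases of LTO1 are shared with CCND1. The sum thus takes in the fall of LTO1 itself and does not show a fall of CCND1.

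CCND3, a D-type cyclin best known from lymphoid cells, lies on GRCh38 chromosome 6, 41934933 to 42050357, minus strand. It was at 20.95, 25.1 and 29.9 CPM in SIRT4 libraries, against 25.4, 19.1 and 20.3 CPM in ctrl libraries. The groups overlapped, and the log2 fold change of 0.23 had a 95% interval of -0.14 to 0.59. CCND2, the third D-type cyclin and not one of the 10, was scarce and fell by 1.58 on the log2 scale (SE 0.21, adjusted p = 0.00193, edgeR with Benjamini-Hochberg). It was at 1.43, 1.71 and 2.23 CPM in SIRT4 libraries, against 5.63, 5.63 and 4.84 CPM in ctrl libraries. Per length, CCND1 made up 90.8% to 93.4% of the summed D-type cyclin level in SIRT4 libraries and 91.9% to 93.3% in ctrl libraries, and the share of CCND2 was 0.432% ± 0.091 in SIRT4 libraries and 1.21% ± 0.08 in ctrl libraries (SD, n = 3 each).

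Neither G1 kinase passed. CDK4, on GRCh38 chromosome 12, 57747727 to 57756013, minus strand, was at 94.6, 81.2 and 87.4 CPM in SIRT4 libraries, against 83.5, 89.6 and 85.3 CPM in ctrl libraries. CDK6, on GRCh38 chromosome 7, 92604921 to 92836594, minus strand, was at 80.2, 78.6 and 83.8 CPM in SIRT4 libraries, against 76.9, 86.5 and 78.9 CPM in ctrl libraries. Both pairs of groups overlapped, and which group was higher changed with the scaling, as it did with single libraries left out. The 95% intervals of the log2 fold change were -0.13 to 0.18 for CDK4 and -0.14 to 0.15 for CDK6, around values of 0.03 and 0.00. Of CDK4's exon bases 43.2% are shared with TSPAN31, a tetraspanin gene on the opposite strand, which was at 19.1, 14.2 and 11.4 CPM in SIRT4 libraries, against 25.9, 11.7 and 24.3 CPM in ctrl libraries. The sum of CDK4 and TSPAN31 had a log2 fold change of -0.06 and did not pass either.

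In CPM per kilobase, CCND1 was the most abundant of the 10 genes in both groups, at 53.2 ± 1.2 CPM per kilobase in SIRT4 libraries and 57.3 ± 1.6 in ctrl libraries (SD, n = 3 each). In SIRT4 libraries CDK4 (27.7), CDKN1A (24.5), CDKN1B (17.1), CDKN2C (13.9), CDKN2D (12.0), CDK6 (6.60) and CCND3 (4.36) followed, with overlap between CDK4 and CDKN1A and between CDKN2C and CDKN2D. In ctrl libraries the order was CDKN1A (31.8), CDK4 (27.2), CDKN1B (20.2), CDKN2D (14.02), CDKN2C (7.70), CDK6 (6.59) and CCND3 (3.72), without overlap between neighbours. The order of the means thus differed between the groups for CDKN1A and CDK4 and for CDKN2C and CDKN2D. Of these 4 genes only CDKN2C passed the threshold, and the level of CDK4 rests in part on exon bases shared with TSPAN31. CDK4 made up 80.0% to 82.0% of the summed CDK4 and CDK6 level in SIRT4 libraries and 80.0% to 80.8% in ctrl libraries.

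The regulators on which these genes act were read from a list of 30 other G1/S genes, chosen with earlier results of these data known. Of these 6 were higher, 4 were lower and 20 did not pass, 33.3% called against 17.1% of all genes tested. The shares over all genes tested, here and below, include many genes of low count. All 30 averaged more than 1 CPM. With the stricter filter (mean CPM of 1 or more), 2026 of 15423 genes tested were higher and 1760 lower, a larger share than 17.1%. The list's median log2 fold change was 0.08. In the group of the E- and A-type cyclins, CDK2 and the phosphatase that activates it, 2 of 5 rose and none fell, beside 9.38% higher among all genes tested. CDC25A, that phosphatase, was at 14.3, 12.9 and 15.9 CPM in SIRT4 libraries, against 6.70, 6.58 and 7.33 CPM in ctrl libraries, a log2 fold change of 1.07 (SE 0.12, adjusted p = 0.00102, edgeR with Benjamini-Hochberg). CCNE2, an E-type cyclin, rose by 0.98 on the log2 scale (SE 0.22, adjusted p = 0.0191, edgeR with Benjamini-Hochberg), and the adjusted p was 0.0559 without SIRT4 replicate 1 and 0.0586 without SIRT4 replicate 3. CCNA2, cyclin A2, did not pass (0.18).

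Of 10 E2F and DP factors 3 rose, 1 fell and 6 did not pass, beside 9.38% higher and 7.67% lower among all genes tested. E2F1, an activator of S phase genes, was at 68.2, 71.2 and 73.2 CPM in SIRT4 libraries, against 39.5, 38.9 and 38.0 CPM in ctrl libraries, and rose by 0.87 on the log2 scale (SE 0.06, adjusted p = 7.84e-05, edgeR with Benjamini-Hochberg). E2F2, its close relative, rose by 0.93 (SE 0.13), and TFDP1, a partner of both in binding DNA, rose by 0.66 (SE 0.06). E2F7, an E2F repressor named after its value was seen, was at 28.4, 32.4 and 34.6 CPM in SIRT4 libraries, against 44.8, 52.9 and 49.6 CPM in ctrl libraries, and fell by 0.63 on the log2 scale (SE 0.10, adjusted p = 0.0038, edgeR with Benjamini-Hochberg). Of other repressive E2F factors, E2F6 and E2F8, the closest relative of E2F7, had log2 fold changes of 0.47 and 0.40, and neither passed (adjusted p = 0.0652 and 0.0856, edgeR with Benjamini-Hochberg). Over the whole G1/S list, the E2F motif spelled out above occurred in the windows of 4 of 5 higher genes with a window (CDC25A, E2F1, E2F2 and TFDP1), of 0 of 3 lower ones and of 2 of 16 that did not pass (RBL1 and E2F3). It occurs in 3.31% of all windows, but that share is per window, while these few genes differ in their number of windows. Of the called genes, CCNE2 and CCND2 had no window. The list was chosen by hand and split by calls from these same data, so the counts are descriptions only. Whether E2F factors act on these genes here was not tested. The pocket proteins, which hold E2F factors in check, did not pass, with log2 fold changes of 0.14 for RB1, 0.25 for RBL1 and -0.05 for RBL2.

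**Figure D4:**
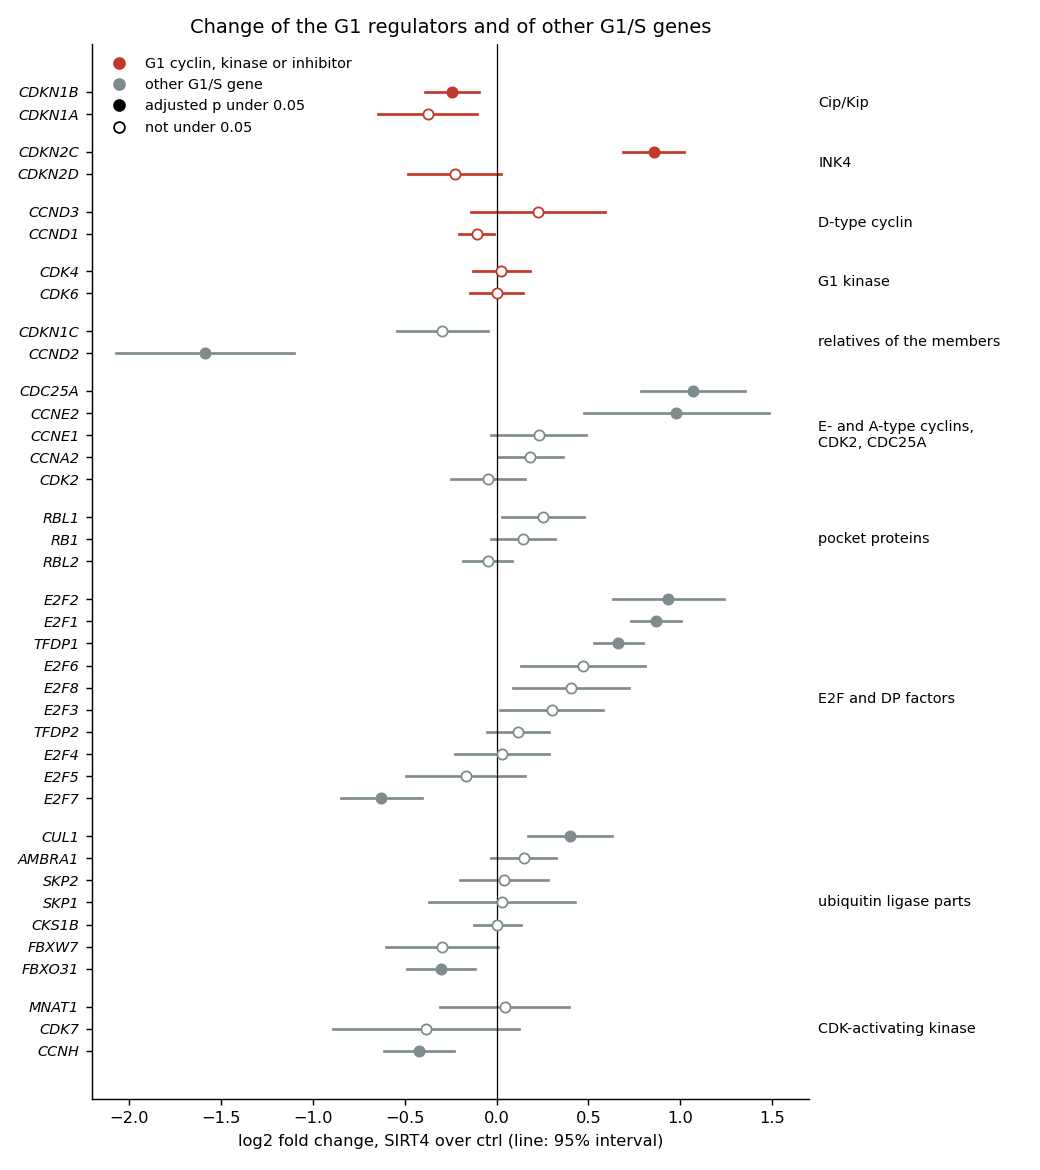
Log2 fold change of SIRT4 over ctrl (horizontal axis) with its 95% interval for the 8 tested regulators (red) and the 30 other G1/S genes (grey), filled where the adjusted p is under 0.05. CDKN2C at 0.86 lies beside E2F1 at 0.87 and E2F2 at 0.93, while CDK4 and CDK6 lie at 0.03 and 0.00.

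Among 7 parts of ubiquitin ligases that degrade cyclins and inhibitors, 1 rose and 1 fell, beside 17.1% called in either direction among all genes tested. CUL1, the scaffold of the SCF ligase, rose by 0.40 on the log2 scale (SE 0.10), and FBXO31, an F-box protein reported to target cyclin D1, fell by 0.30 (SE 0.08). FBXW7, the F-box protein for cyclin E, did not pass (-0.30). The call of CUL1 was lost without SIRT4 replicate 1 or 2 or ctrl replicate 1 or 2, with edgeR's adjusted p-values of 0.0885, 0.0932, 0.0587 and 0.0666. That of FBXO31 was lost without SIRT4 replicate 1, 2 or 3 or ctrl replicate 1 or 3, with edgeR's adjusted p-values of 0.0905, 0.1216, 0.0706, 0.1121 and 0.1221. Of the CDK-activating kinase, which phosphorylates CDK4 and CDK2, CCNH, its cyclin subunit, fell by 0.42 on the log2 scale (SE 0.08). CDK7 (-0.38) and MNAT1 (0.04) did not pass.

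CDKN1A was also set beside 18 other targets of p53, of which 2 were higher, 4 were lower and 12 did not pass. That is 33.3% called, against 17.1% of all genes tested, and the median log2 fold change was -0.10. As with the G1/S list, none of the 18 was of low count, and the share called was larger among such genes. GADD45A, a growth arrest gene, was at 31.4, 29.4 and 32.4 CPM in SIRT4 libraries, against 56.3, 66.7 and 73.3 CPM in ctrl libraries, and fell by 1.07 on the log2 scale (SE 0.10, adjusted p = 0.000406, edgeR with Benjamini-Hochberg). SESN2, a stress-induced inhibitor of mTORC1, fell by 0.63 (SE 0.07), and TP53I3, an oxidoreductase gene, rose by 0.76 (SE 0.10). ZMAT3, AEN and TIGAR, named after their values were seen, changed by -0.47, -0.41 and 0.32. The call of ZMAT3 was lost without SIRT4 replicate 2, at an edgeR adjusted p of 0.0503, and that of TIGAR whichever library was left out, at 0.0507 to 0.0786. AEN was lost without any 1 library but ctrl replicate 2, at edgeR's adjusted p of 0.0527 to 0.1228. The calls among these targets thus went in both directions, and the activity of p53 was not tested.

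The pattern over the 6 libraries was compared with that of 15410 other genes with a mean of at least 1 CPM, as the root mean square distance between log2 CPM values centred on each gene's mean. Nearest to CDKN2C were MLXIP, a glucose-responsive transcription factor, at a distance of 0.0453, and the keratin gene KRT19 at 0.0492. MLXIP averaged 348 ± 12.0 CPM in SIRT4 libraries and 204 ± 11.9 CPM in ctrl libraries (SD, n = 3 each). Nearest to CDKN1B were SMIM15 at 0.0169 and C2orf42 at 0.0260. SMIM15 averaged 75.7 ± 3.5 CPM in SIRT4 libraries and 89.8 ± 4.2 CPM in ctrl libraries (SD, n = 3 each). These distances describe 6 libraries in 2 groups, where any gene with a like difference between the groups comes out close.

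**Figure D5:**
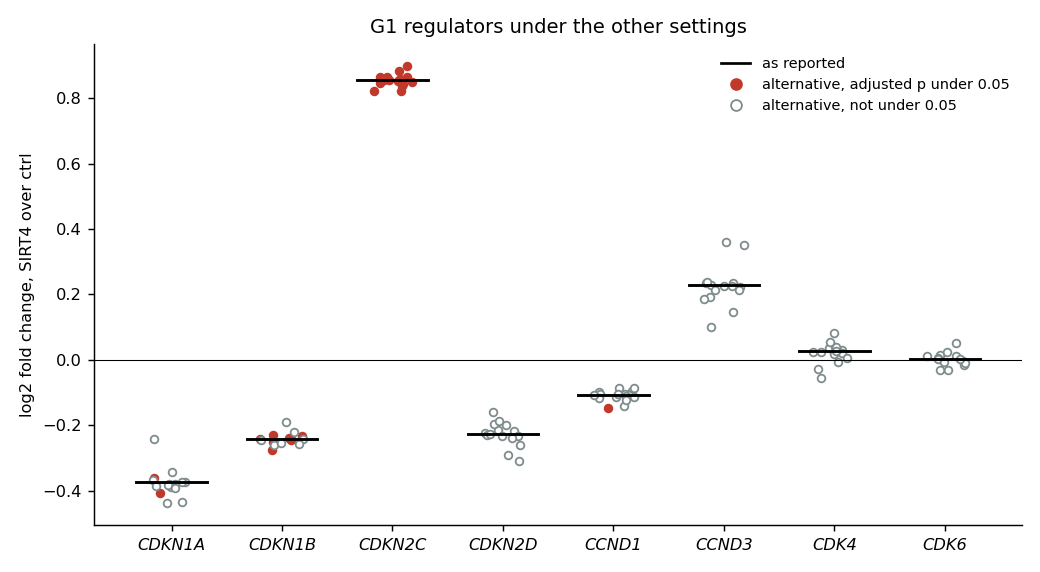
Log2 fold change of SIRT4 over ctrl (vertical axis) for the 8 tested regulators under the other settings tried (points, filled where the adjusted p is under 0.05) and as reported (black line). CDKN2C stays between 0.82 and 0.90 and is filled throughout, CDKN1B has filled and open points between -0.27 and -0.19, and CDK4 and CDK6 lie on both sides of 0.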

How the data were processed

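Per the labels, the RNA was prepared with TRIzol and the libraries with an NEBNext Ultra kit. The submitters' processing notes name STAR, featureCounts, Subread, DESeq2 and the build hg38, without versions or roles, and no source used here gives the strand setting. The authors deposited 1 table of whole numbers per Ensembl gene, used here as estimated counts because low values rise at multiples of 4, so 1 unit may not be 1 fragment. They needed no rounding.

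Gene symbols were looked up by Ensembl identifier (60357 matched) and from GENCODE release 29 (296 more), which also gave coordinates and exon lengths. CPM used TMM-scaled library sizes. Genes passing filterByExpr from the whole table, in 3 SIRT4 against 3 ctrl libraries, were tested with the quasi-likelihood functions of edgeR 4.0.16 in R 4.3.3, fitted robustly and with no covariate. The threshold was 0.05 for p-values adjusted after Benjamini and Hochberg. Each SE was derived from the log2 fold change and the F statistic. The procedure was tested on simulated data. These had the same variation setting for all genes and no change as small as that of CDKN1B, so they do not bear on such small changes. Precision was judged from the spread among 3 libraries a group, and for genes at 0 from the total count of each library.

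The genes and lists were chosen with earlier results of these data known, so their counts are descriptions. Named were the 10 regulators, SIRT4, CCND2, CDKN1C, RB1, up to 3 genes with the smallest adjusted p in each class of the G1/S list and in the p53 list, the 9p21 neighbours, and the 2 genes nearest to each regulator past the threshold. The epithelial markers, COL1A1, THY1, COL3A1, CD68, E2F7, ZMAT3, AEN, TIGAR, E2F3, E2F6, E2F8, LTO1 and TSPAN31 were named after their values were seen. The alternatives tried were scaling by size factors of DESeq2 or by library size only, no filter or a stricter one (at least 10 counts in 3 libraries, with a mean CPM of 1 or more), limma-voom (limma 3.58.1), the Wald test of DESeq2 1.42.0, the replicate number as a block, division by 4, and leaving out each library. Added after the data were seen were the table without CLDN4 and sums with overlapping genes. No library was left out of the results as reported.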

Additional observations from a re-analysis of the deposited data

How the results depend on the processing

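Of the regulators, CDKN2C passed under all 15 alternatives, with log2 fold changes from 0.82 to 0.90 and adjusted p-values up to 0.00393 by the tests named above. The 1 regulator counted as lower became 2 with library size only and with the DESeq2 Wald test, which added CDKN1A, and 0 with the replicate block, where CDKN1B had an adjusted p of 0.0697 by edgeR. It was also 0 whichever library was left out. CDK4 turned to -0.0063 with library size only and -0.057 when summed with its overlapping gene, and ran from -0.027 to 0.081 as single libraries were left out. CDK6 turned to -0.032 with library size only, -0.0034 with the stricter filter and -0.0081 after division by 4, and ran from -0.031 to 0.052 as libraries were left out. With library size only, the median log2 fold change over all tested genes also moved, from -0.0206 to -0.0538. The SEs as reported were 0.068 for CDK4 and 0.063 for CDK6. The cause of the changes of sign was not tested.

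Over all genes, the 1595 lower genes became 978 to 1204 as single libraries were left out, and the 1950 higher ones 1312 to 1570. Of the p53 targets, the 2 higher became 1 with the replicate block and 1 whichever library was left out, and the 4 lower became 2 to 4 as libraries were left out. The G1/S list kept its counts within 1.5 times, from 5 to 8 higher and 3 to 4 lower. Same-numbered libraries did not deviate together (correlations across genes of 0.00376, -0.00127 and -0.0248), so the block pairs libraries by a number alone. It ended the calls of CUL1 and TIGAR, at edgeR's adjusted p of 0.0810 and 0.0726. The block gave 1450 higher and 1140 lower genes.

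With 3 libraries a group, changes as small as those of CDKN1B or CCND1 lie near what the test can call, and CDKN2A and CDKN2B are limited by the 3 counts that a count of 0 allows, or 4 times as many if 4 deposited units are 1 fragment.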
